A study of Homo sapiens with 24 samples.

Results

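In cells that carried the INTS8 variant N211del, 152 genes made up a set of transient risers, whose newly made RNA was higher after 1 h of dTAG13 than at 0 h and lower again at 3 h. They were chosen from 6042 eligible genes, out of 7223 listed in any file. A gene was eligible when every batch 2 library listed it, its mean over those libraries was at least 1 FPKM, and its symbol was not that of a zinc finger (ZNF) or solute carrier (SLC) gene, which left out 355 genes. The choice used the means of log2(FPKM + 0.1) over 2 libraries per time in the N211del line of batch 2. A member was at least 0.585 higher at 1 h than at 0 h, which is about 1.5-fold, less than 0.585 higher at 3 h than at 0 h, and at least 0.3 lower at 3 h than at 1 h. Those differences therefore describe the members and were not tested.

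The assay was TT-seq, which isolates RNA labelled during a brief pulse of a uridine analogue and so reports current transcription. The cells were DLD1, an established line from a human colorectal adenocarcinoma, with a dTAG degron knocked in at an Integrator gene, so that the small molecule dTAG13 sends the tagged protein to degradation. The N211del line had the degron at INTS8 and also made INTS8-N211del ectopically; the INTS8-dTAG line had the degron at INTS8 alone, and the INTS11-dTAG line had it at INTS11. Batch 2 held the N211del and INTS11 lines after 0, 1 and 3 h of dTAG13, and batch 1 held all 3 lines after 3 h of dTAG13 or of its vehicle DMSO. Each of the 12 groups had 2 libraries, which the labels call biological duplicates. There was no vehicle group in batch 2 and no line without a tag, so protein loss, dTAG13 itself, handling and time cannot be told apart there. The tag acts on protein, so its loss cannot be checked from RNA. The sources used here do not give the promoter of the ectopic variant or whether a line is 1 clone.

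Integrator is a complex that acts on RNA polymerase II soon after it starts a transcript. One of its modules is an RNA endonuclease with INTS11 as the catalytic subunit, which cuts the new transcript and ends transcription early. Another module recruits the phosphatase PP2A through INTS8, and the phosphatase removes phosphates that kinases add to the polymerase and its pausing factors. Loss of either activity can raise the output of genes whose polymerase is usually stopped near the promoter.

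Promoters are shown for the transient risers DCLK2, NECTIN4 and FBP1, chosen after their values were seen. DCLK2 had the highest 1 h value relative to 0 h among well-measured members, and NECTIN4 and FBP1 were below their 0 h level at 3 h. Each sequence runs from 250 bases before to 50 bases after the start of the gene, 5′ to 3′ on the gene's strand, from RefSeq on GRCh38.p14. Capitals mark GC boxes (GGGCGG on either strand).
DCLK2, chr4:150078195-150078494, plus strand: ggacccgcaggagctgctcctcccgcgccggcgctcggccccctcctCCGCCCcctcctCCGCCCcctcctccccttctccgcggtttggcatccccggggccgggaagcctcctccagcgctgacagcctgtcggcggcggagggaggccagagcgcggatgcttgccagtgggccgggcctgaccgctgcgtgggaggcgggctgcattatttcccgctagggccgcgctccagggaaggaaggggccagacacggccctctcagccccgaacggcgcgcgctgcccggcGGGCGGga
NECTIN4, chr1:161089509-161089808, minus strand: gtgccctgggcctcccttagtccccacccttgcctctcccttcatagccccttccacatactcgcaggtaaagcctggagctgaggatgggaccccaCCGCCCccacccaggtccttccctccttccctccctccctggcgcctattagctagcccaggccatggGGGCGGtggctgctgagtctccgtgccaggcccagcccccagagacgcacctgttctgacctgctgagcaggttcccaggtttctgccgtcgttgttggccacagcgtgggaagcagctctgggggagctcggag
FBP1, chr9:94639469-94639768, minus strand: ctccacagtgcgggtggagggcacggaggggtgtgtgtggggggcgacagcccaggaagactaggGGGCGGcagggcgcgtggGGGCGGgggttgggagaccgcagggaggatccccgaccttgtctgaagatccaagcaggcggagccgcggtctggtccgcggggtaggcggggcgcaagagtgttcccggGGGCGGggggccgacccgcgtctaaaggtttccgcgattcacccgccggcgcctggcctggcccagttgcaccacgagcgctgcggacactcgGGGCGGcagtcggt
The DCLK2 promoter held 3 GC boxes and 76.0% G and C, the NECTIN4 promoter 2 and 65.7%, and the FBP1 promoter 4 and 72.7%. A RefSeq promoter was matched for 119 of the 152 transient risers. A GC box was present in 72.27% of these, against 72.49% of 4903 eligible promoters and 44.59% of 27305 promoters of all genes. The median share of G and C was 68.7% in the transient risers, 65.7% in eligible promoters and 58.3% in all. The core of the cAMP response element (TGACGT, either strand, as for all motifs here) was in 2.52% of the transient risers' promoters, against 11.24% of eligible and 8.32% of all promoters. The ETS site CCGGAAG was in 6.72%, against 17.34% of eligible and 10.67% of all, and CCAAT was in 28.57%, against 36.2% and 35.7%. The TATA box (TATAAA) was in 6.72%, 5.49% and 11.95%, and the AP-1 site TGANTCA in 6.72%, 4.75% and 7.76%. The E-box CACGTG was in 10.08%, 10.42% and 7.43%, the hypoxia element ACGTGC, which can overlap it, in 10.08%, 8.75% and 6.87%, and the NRF1 site in 11.76%, 11.77% and 6.28%. The core of the interferon response element was in 1.68%, 3.08% and 3.65%, and that of the NF-kB site in 0 of the 119 and 0.18% of eligible promoters. The promoters of 808 sustained risers held TGACGT in 10.77%, CCGGAAG in 8.17%, CCAAT in 37.25%, a GC box in 71.78%, TATAAA in 8.91% and TGANTCA in 5.94%. They held CACGTG in 8.17%, ACGTGC in 8.29%, the NRF1 site in 5.07%, the interferon core in 3.59% and the NF-kB core in 0.12%. The share with the ETS site was thus below that of eligible promoters in sustained risers too. These shares describe letters in the windows, and their differences were not tested.

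**Figure D1:**
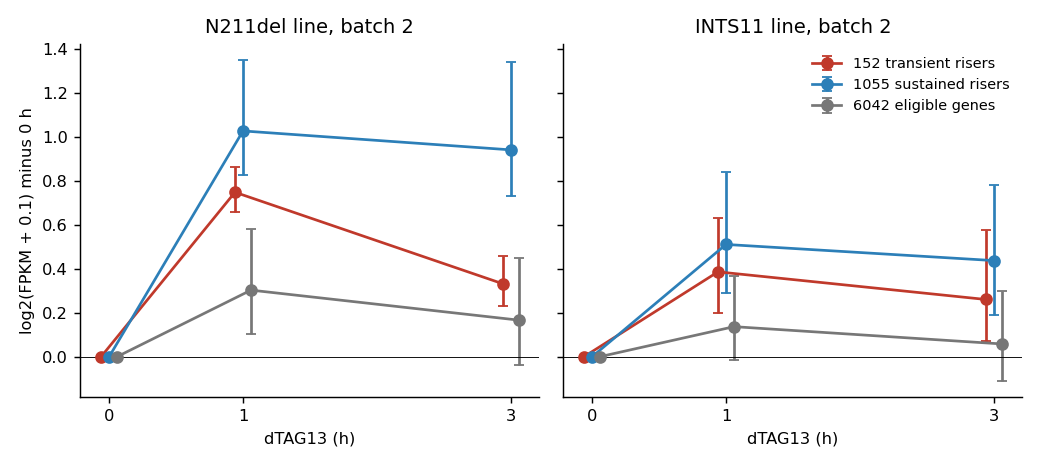
Median log2(FPKM + 0.1) relative to 0 h, with the range from the lower to the upper quartile over genes as bars, against hours of dTAG13 in batch 2, for N211del cells (left) and INTS11 cells (right). In the N211del line the transient risers peak at 0.75 at 1 h and stand at 0.33 at 3 h, by the way they were chosen, while INTS11 cells give medians of 0.39 and 0.26.

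In the N211del line the transient risers stood 0.75 above 0 h at 1 h in the median, with a range of 0.59 to 1.80 on the log2 scale, and 0.33 above 0 h at 3 h. Between 1 and 3 h their median difference was −0.40. The same 3 medians over all eligible genes were 0.30, 0.17 and −0.13, so the median gene of this line moved the same way by less. The 1055 sustained risers, at least 0.585 above 0 h at both times, had medians of 1.03, 0.94 and −0.05. A transient riser was therefore mostly not back at its starting level: 141 of the 152 were still above 0 h at 3 h, and 93 kept less than 50% of their 1 h difference. The name describes a partial return, and 11 members were at or below their 0 h level at 3 h. Both 1 h libraries lay above both 0 h libraries in 150 members, and both 3 h libraries lay below both 1 h libraries in 145. These are the libraries that chose the members, so this separation follows largely from the choice. Both steps share the 1 h libraries, so a high 1 h value enters both.

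The members lie close to the thresholds that define them. The 1 h difference was under 0.685 in 46 of them, the 3 h libraries were less than 0.4 below the 1 h libraries in 71, and 30 stood within 0.1 of the upper limit at 3 h. Just inside the 1 h threshold were HEMK1 at 0.586 and TET3 at 0.595, and just outside were FBXL20 at 0.584, GPR35 at 0.578 and NPAS2 at 0.577. For the limit at 3 h, C2CD2 at 0.585 after rounding, FXYD3 at 0.581 and TCHH at 0.58 were inside, and TRABD2A at 0.594, MARK1 at 0.605 and BNIP5 at 0.614 were outside. For the difference between 3 and 1 h, SSX2IP at −0.3 after rounding, SORBS2 at −0.301 and TET3 at −0.302 were inside, and KLK1 at −0.299, HMOX1 at −0.298 and BMPR2 at −0.296 were outside. The median SE of these differences was 0.077 per member, with a range of 0.032 to 1.311. The level of the median gene itself moved in this line, so membership depends on the scale: when each library was centred on its own median, 19 genes met the rule, 12 of them among the 152. These 12 were CBX2, CYSRT1, DCLK2, ERP27, GPR161, IL17C, MC1R, PF4V1, RNASET2, RNF186, SHISA4 and ZMYND10.

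The transient risers were made at modest levels. Their mean over batch 2 had a median of 7.61 FPKM, against 16.9 FPKM in eligible genes and 8.38 FPKM in the sustained risers. Their gene length, which the deposited values carry, had a median of 30419 bp over the 149 with a length, against 33259 bp in eligible genes. With eligible genes split by length into 4 parts of 1503, the parts held 42, 33, 41 and 33 members from the shortest to the longest. Summed over both 0 h libraries, the median member held 506 of the whole-number units that underlie the values; 33 members held under 100 and 7 held under 20. By position, 15 members were among 256 eligible genes of chromosome 4 and 22 among 655 of chromosome 1. Neighbouring members were SSX2IP, MCOLN2 and MCOLN3 on chromosome 1, XDH and SPAST on chromosome 2, ARHGEF38 and NPNT on chromosome 4, ZDHHC11B and NKD2 on chromosome 5, and KCNK6 and CATSPERG on chromosome 19. Of 151 members found in the RefSeq table, 18 overlap another protein-coding gene, among them ARFGEF3, C11orf91, HDDC3, IL7, JADE1, KCNK6, LRRIQ4, MC1R, RNF135 and TET3. Their values are uncertain, since reads of both genes cannot be told apart where counting did not use strand.

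Summed per library, the units came to between 5517104 and 8119831 in batch 1, and between 8709274 and 11266617 in batch 2. As a check of the cell type, 11 of 16 colon epithelial markers were listed in every batch 2 library, with summed levels of 3153 to 3531 FPKM, and of these CLDN3 and CLDN4 were at 0 throughout. Of 17 fibroblast, endothelial and blood markers, only COL1A1 was listed, at 0 to 0.32 FPKM. INTS11, INTS8 and the PP2A gene PPP2CA were not analysed here. The p-values given here rest on the spread of these libraries alone.

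The member that moved most among those with ample signal was DCLK2, a doublecortin-like kinase that binds microtubules. DCLK2 was at 1.54 and 1.65 FPKM at 0 h, 4.85 and 4.68 FPKM at 1 h, and 2.28 and 2.2 FPKM at 3 h in the N211del line. The 3 times did not overlap, and the 1 h libraries stood 1.52 ± 0.08 (SE) above 0 h on the log2 scale. These libraries chose the gene, so the separation describes it and was not tested. With INTS11 tagged, DCLK2 was at 1.18 and 1.16 FPKM at 0 h, 1.93 and 1.87 FPKM at 1 h, and 1.65 and 1.61 FPKM at 3 h. It rose by 0.65 at 1 h (limma adjusted p = 9.03e-05) and stood 0.45 above 0 h at 3 h (adjusted p = 0.000986). In batch 1 at 3 h, DCLK2 was at 1.3 FPKM in both libraries with dTAG13 and 1.15 and 1.21 FPKM with DMSO in the N211del line, a difference of 0.11 that did not pass the test (adjusted p = 0.496). With INTS11 tagged, in batch 1, it stood 0.49 higher with dTAG13 (adjusted p = 0.00704), but without DMSO replicate 1 or dTAG13 replicate 2 the adjusted p was 0.0697 or 0.0612.

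GPR161, a ciliary orphan receptor that restrains Hedgehog signalling, was at 3.06 and 3.05 FPKM at 0 h, 6.28 and 6.46 FPKM at 1 h, and 4.51 and 4.39 FPKM at 3 h in the N211del line. RNASET2, a ribonuclease of the T2 family, was at 6.98 and 6.46 FPKM, then 14.4 and 14.6 FPKM, then 9.66 and 9.82 FPKM. Both genes kept about 50% of their 1 h difference at 3 h, with 0.53 left in each. In batch 1 RNASET2 was at 10.7 and 12.7 FPKM with dTAG13 and 8.31 and 7.20 FPKM with DMSO in the N211del line, 0.58 ± 0.10 (SE) higher (limma adjusted p = 5.56e-05). RNASET2 did not pass the test in INTS11 cells at any time: it stood 0.11 above 0 h at 1 h (adjusted p = 0.257) and 0.07 lower with dTAG13 in batch 1 (adjusted p = 0.631). The N211del and INTS11 responses of RNASET2 in batch 1 differed by 0.65 (adjusted p = 0.00139). SAMD5, a protein with a sterile alpha motif, was at 14.1 and 16.0 FPKM at 0 h, 28.9 and 30.6 FPKM at 1 h, and 21.9 and 22.7 FPKM at 3 h in the N211del line. In batch 1 SAMD5 rose by 0.63 in the N211del line (adjusted p = 2.84e-07).

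**Figure D2:**
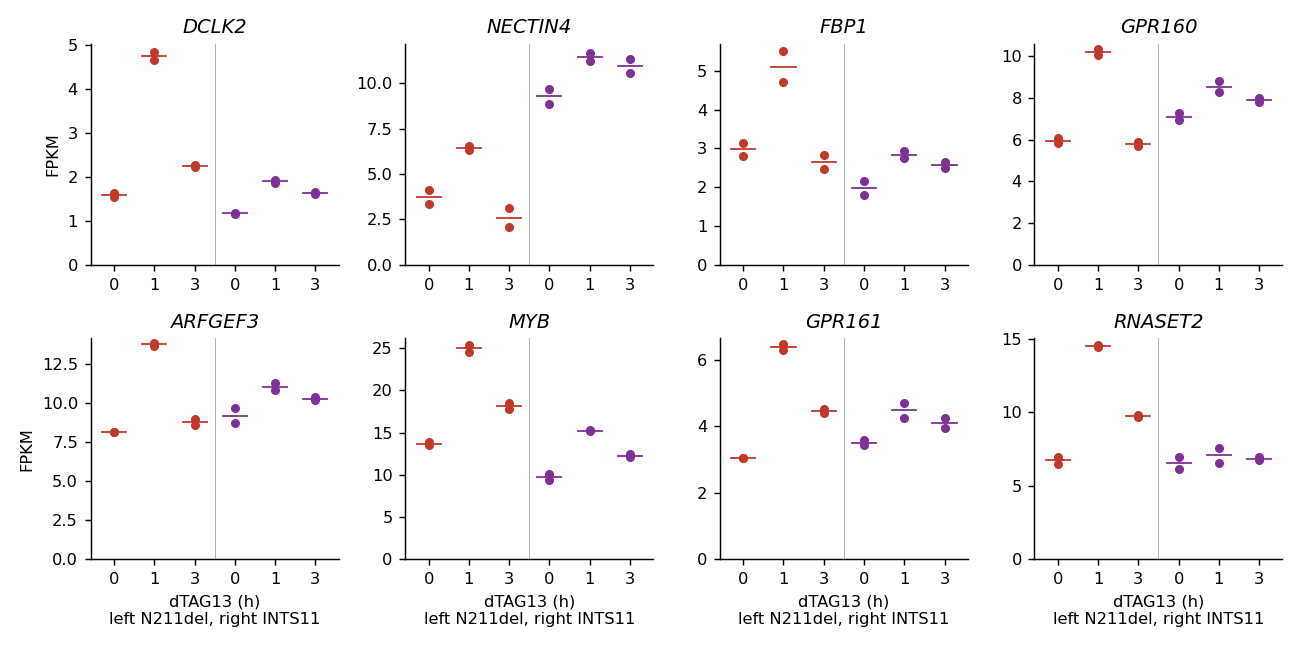
FPKM in each batch 2 library against hours of dTAG13 for 8 transient risers, with the N211del line on the left of each panel and the INTS11 line on the right; points are libraries and bars are means of 2. In the N211del line, whose libraries chose these genes, the 1 h libraries of DCLK2 are at 4.85 and 4.68 FPKM. They stand clear of its 0 h and 3 h libraries, and NECTIN4 ends below its 0 h level.

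Other members with large 1 h differences rested on little signal. PF4V1, a variant of a platelet chemokine, had the largest difference, 1.80, with an SE of 1.31: its libraries were at 0 and 1.91 FPKM at 0 h, 2.88 and 0.719 FPKM at 1 h, and 0 in both at 3 h. RNF186, a RING ubiquitin ligase, was at 0.622 and 0.586 FPKM, then 2.0 and 1.33 FPKM, then 0.625 and 0.626 FPKM. Both PF4V1 and RNF186 reached a batch 2 mean of 1 FPKM only through the INTS11 line. MC1R, the melanocortin receptor, held 10 and 4 units at 0 h, 14 and 14 at 1 h, and 7 and 12 at 3 h, and its span overlaps another gene. IL17C, an epithelial cytokine, was at 5.19 and 5.24 FPKM at 0 h, 8.33 and 13.9 FPKM at 1 h, and 7.83 and 7.09 FPKM at 3 h. The 1 h libraries of IL17C and of CYSRT1 lie as far apart as their lower one lies above 0 h or farther, and the SE of the 1 h difference was 0.22 for IL17C and 0.36 for CYSRT1. CBX2, a Polycomb protein, had an SE of 0.38 on a difference of 0.97.

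The same line at 3 h in libraries that the choice did not use was batch 1, where dTAG13 was set against DMSO. Of 145 transient risers tested there, 100 were higher with dTAG13 and 1 was lower, and the median difference was 0.42. The lower count was 0 without DMSO replicate 2 and 2 without dTAG13 replicate 2. Among eligible genes 48.2% were called higher and 7.22% lower, with a median of 0.20. Of 999 sustained risers 946 were called higher, with a median of 0.95. The other 7 transient risers (EMP3, HOXD11, PF4V1, MT1F, NRSN2, RNF186 and MFSD6L) were not in every batch 1 file. With libraries centred on their medians, under which the median gene of this contrast stood at −0.05 in place of 0.21, 59 transient risers were called higher and 13 lower, against 26.7% and 36.38% of eligible genes. The batch 1 values behave as units per kilobase without a scaling factor per library. In the N211del line the units summed to 6179411 and 7019655 with dTAG13 and to 5614822 and 5517104 with DMSO. The part of the difference that follows these totals was not tested. Most transient risers thus stood above their vehicle control at 3 h in batch 1 as deposited, below the sustained risers and above the median gene.

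**Figure D3:**
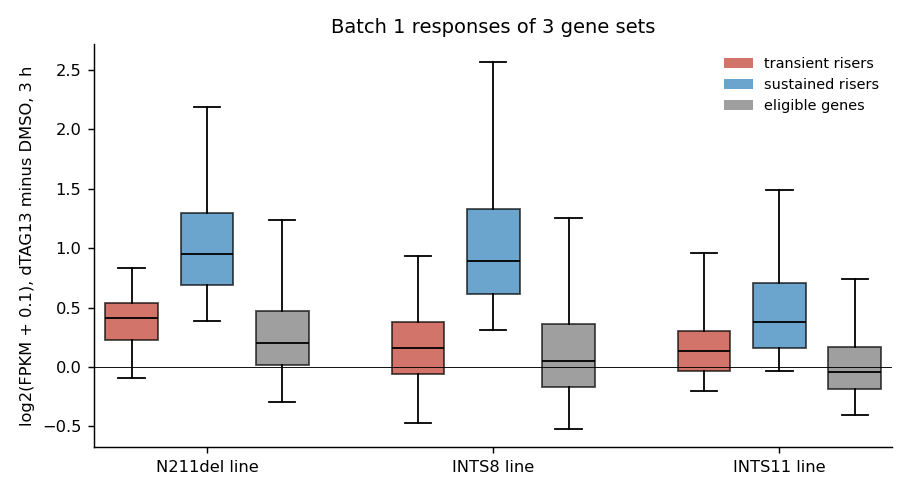
Log2 difference between dTAG13 and DMSO at 3 h in batch 1 for the transient risers, the sustained risers and all eligible genes in the N211del, INTS8 and INTS11 lines; boxes run from the lower to the upper quartile with the median as a line, and whiskers from the 5th to the 95th percentile of genes. The transient risers have medians of 0.42, 0.16 and 0.14 in the 3 lines, under the sustained risers at 0.95, 0.89 and 0.38.

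The level left at 3 h in batch 2 went along with the batch 1 response of the same line, and to a similar degree with that of the INTS8 line. Across 145 members, Pearson's r was 0.405 and Spearman's coefficient 0.438, given as a description across genes that share libraries and scaling. With the batch 1 INTS8 response the same level gave 0.365 and 0.358, and with the batch 1 INTS11 response 0.149 and 0.185. The differences between these coefficients were not tested. With members ordered by what was left at 3 h and split into 3 equal parts, the part with the least had 21 of 46 called higher in batch 1 N211del (median 0.25), the middle part 40 of 49 (median 0.42) and the part with the most 39 of 50 (median 0.50). The first of these shares is close to the 48.2% of eligible genes called higher. Of the 11 members at or below 0 h at 3 h, 8 were tested in batch 1: none was called higher by limma, 1 was lower and their median was −0.05.

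**Figure D4:**
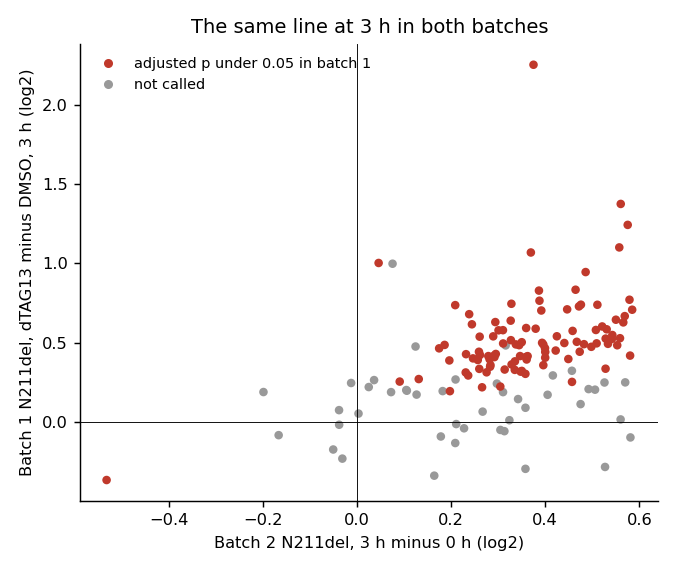
Log2 difference between dTAG13 and DMSO at 3 h in the N211del line of batch 1 against the log2 difference between 3 and 0 h in the same line of batch 2, with 1 point for each of 145 transient risers; red points had an adjusted p under 0.05 in batch 1. The point at the lower left is NECTIN4, at −0.53 in batch 2 and −0.37 in batch 1.

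The named members with the largest rise in batch 1 N211del were CYSRT1 (2.25, limma adjusted p = 0.0104), LZTS3 (1.37, adjusted p = 3.46e-06), SHISA4 (1.24, adjusted p = 0.0262), MC1R (1.10, adjusted p = 0.00533), KCNK6 (1.07, adjusted p = 0.00246) and CERCAM (1.00, adjusted p = 3.6e-05). Of these, CYSRT1 rested on 17 and 17 units with dTAG13 and 6 and 2 with DMSO. MC1R rested on 12 and 10 units with dTAG13 and 5 and 5 with DMSO, so the size of both rises is uncertain. The rises of LZTS3, SHISA4, KCNK6 and CERCAM also rested on few units, 29 to 46 per library with dTAG13 and 12 to 24 with DMSO. LZTS3, a leucine zipper protein, was at 3.29 and 3.66 FPKM with dTAG13 and 1.37 and 1.19 FPKM with DMSO. KCNK6, a background potassium channel, was at 3.53 and 2.71 FPKM with dTAG13 and 1.23 and 1.64 FPKM with DMSO, and it also rose in the INTS8 line (0.95, adjusted p = 0.00492) and in the INTS11 line of batch 1 (1.10, adjusted p = 0.00364). CERCAM was at 1.93 and 1.6 FPKM with dTAG13 and 0.826 in both DMSO libraries. The dTAG13 and DMSO libraries of LZTS3, KCNK6 and CERCAM did not overlap. CERCAM also rose in the INTS8 line of batch 1 (1.29, adjusted p = 1.34e-06) and in the INTS11 line (0.68, adjusted p = 0.00369), where the call was lost without DMSO replicate 2 (adjusted p = 0.0763). LZTS3 rose in INTS8 by 0.70 (adjusted p = 0.0032), a call lost without dTAG13 replicate 2 (adjusted p = 0.0582). SHISA4 rose there by 1.11 (adjusted p = 0.0399), and MC1R rose in INTS11 by 0.96 (adjusted p = 0.0165). The SHISA4 call was lost without any 1 of the 4 INTS8 libraries, and the MC1R call without either INTS11 DMSO library or dTAG13 replicate 1. CERCAM was low in N211del cells of batch 2 too, at 0.582 and 0.840 FPKM at 0 h, 1.29 and 1.20 FPKM at 1 h, and 0.896 and 0.585 FPKM at 3 h. Its batch 2 mean reached 1 FPKM only through the INTS11 line.

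The INTS8-dTAG line lacks the added variant, and the transient risers were divided there. With dTAG13 for 3 h, 49 of 145 were higher and 18 lower, with a median of 0.16, against 33.9% higher and 21.7% lower of eligible genes and a median of 0.06. The share called higher was thus close to the background, and with centred libraries the counts were 44 and 28. Of the 999 sustained risers 943 were called higher, with a median of 0.89. The responses of the N211del and INTS8 lines were then compared in 1 fit. The N211del response was higher in 28 of 145 transient risers and lower in 4, with a median difference of 0.29, against 9.33% and 1.97% of eligible genes and a median of 0.17. In the sustained risers 40 of 999 were higher and 72 lower, with a median of 0.03. With centred libraries 18 were higher and 5 lower, 12.4% and 3.45% of transient risers against 4.495% and 7.12% of eligible genes. Averaging pairs within counting noise left 4 higher and 1 lower, voom gave 56 higher, and a fit of the compared libraries alone gave 7 lower. The count of 28 depends on single libraries: it was 16 without INTS8 DMSO replicate 1, 11 without INTS8 DMSO replicate 2, 17 without N211del DMSO replicate 1, 15 without N211del DMSO replicate 2, 8 without INTS8 dTAG13 replicate 2, 72 without N211del dTAG13 replicate 1 and 11 without N211del dTAG13 replicate 2. The count of 4 was 1 or 2 without INTS8 DMSO replicate 1 or 2, 0 without N211del DMSO replicate 1 or 2 or INTS8 dTAG13 replicate 1, 1 without INTS8 dTAG13 replicate 2 and 2 without N211del dTAG13 replicate 2.

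The 18 transient risers that fell in the INTS8 line ranged from −0.19 for CNNM3 to −1.30 for NECTIN4 on the log2 scale. With KIAA0319 (−0.81), IL17C (−0.79), FBP1 (−0.73), RHOU (−0.63), IL7 (−0.63) and GPR160 (−0.58) they include genes of several kinds, and DCLK2 was at the weak end (−0.33, limma adjusted p = 0.0454), with its call lost without DMSO replicate 1 (adjusted p = 0.0533), DMSO replicate 2 (0.304) or dTAG13 replicate 2 (0.272).

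NECTIN4, a cell adhesion molecule of epithelia, differed between the lines under each alternative that was run. In the INTS8 line NECTIN4 was at 2.96 and 3.02 FPKM with dTAG13 and 7.59 and 7.38 FPKM with DMSO, a fall of 1.30 on the log2 scale (limma log2 difference −1.30 ± 0.11 SE, adjusted p = 1.64e-09). In the N211del line it was at 4.58 and 5.17 FPKM with dTAG13 and 6.09 and 6.52 FPKM with DMSO (−0.37, adjusted p = 0.00829); this call was lost without DMSO replicate 2 (adjusted p = 0.0741) or dTAG13 replicate 1 (adjusted p = 0.0716). The N211del response stood 0.93 ± 0.16 (SE) above that of the INTS8 line (adjusted p = 0.00148). In batch 2 N211del it was at 3.34 and 4.15 FPKM at 0 h, 6.33 and 6.55 FPKM at 1 h, and 3.13 and 2.06 FPKM at 3 h, so both 3 h libraries lay below both 0 h libraries. NECTIN4 did not pass the test at either time in INTS11 cells, with levels of 8.86 to 11.7 FPKM over 6 libraries.

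GPR160, an orphan receptor, and ARFGEF3 were chosen after their values were seen. In batch 2 N211del GPR160 was at 6.09 and 5.83 FPKM at 0 h, 10.4 and 10.1 FPKM at 1 h, and 5.69 and 5.91 FPKM at 3 h. In batch 1 it fell in the INTS8 line, at 5.70 and 5.32 FPKM with dTAG13 and 8.40 and 8.19 FPKM with DMSO (−0.58, limma adjusted p = 4.42e-05), while the N211del line showed 6.41 and 7.76 FPKM with dTAG13 and 6.52 and 6.88 FPKM with DMSO (0.07, adjusted p = 0.55). The difference between these responses was 0.66 ± 0.14 (SE, adjusted p = 0.00931). ARFGEF3, of the family of ARF exchange factors, was at 8.16 and 8.18 FPKM at 0 h, 13.7 and 13.9 FPKM at 1 h, and 8.62 and 8.99 FPKM at 3 h in the same libraries. It fell by 0.44 in the INTS8 line (adjusted p = 0.000438), and its N211del response was 0.64 higher (adjusted p = 0.00726). The differences of NECTIN4, GPR160 and ARFGEF3 held without any 1 library; for GPR160 and ARFGEF3 they were lost when pairs within counting noise were averaged (adjusted p = 0.153 and 0.157). FBP1, the fructose bisphosphatase of gluconeogenesis, was at 2.81 and 3.15 FPKM at 0 h, 4.71 and 5.51 FPKM at 1 h, and 2.82 and 2.46 FPKM at 3 h in batch 2 N211del. FBP1 fell by 0.73 in the INTS8 line of batch 1 (adjusted p = 1.77e-05) and its N211del response stood 0.65 higher (adjusted p = 0.0219). That difference was lost without INTS8 DMSO replicate 2 (0.0999), N211del DMSO replicate 1 (0.052) or 2 (0.0758), INTS8 dTAG13 replicate 2 (0.0871) or N211del dTAG13 replicate 2 (0.0636), all adjusted p.

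These genes belong to the members that returned farthest. Of the 8 tested members at or below 0 h at 3 h, 5 fell in the INTS8 line of batch 1, among them KIAA0319, NECTIN4, GPR160 and FBP1, 1 rose (LRRIQ4), and their median was −0.53, against 21.7% lower and 33.9% higher of eligible genes. The N211del response was higher in 4 of the 8, among them NECTIN4, GPR160 and FBP1, with a median difference of 0.64, against 9.33% of eligible genes. Among the 46 tested members of the part that had the least left at 3 h, 15 were lower and 6 higher in the INTS8 line, against 1 lower and 18 higher of 49 in the middle part and 2 lower and 25 higher of 50 in the part with the most left. The background in INTS8 was 21.7% lower and 33.9% higher.

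**Figure D5:**
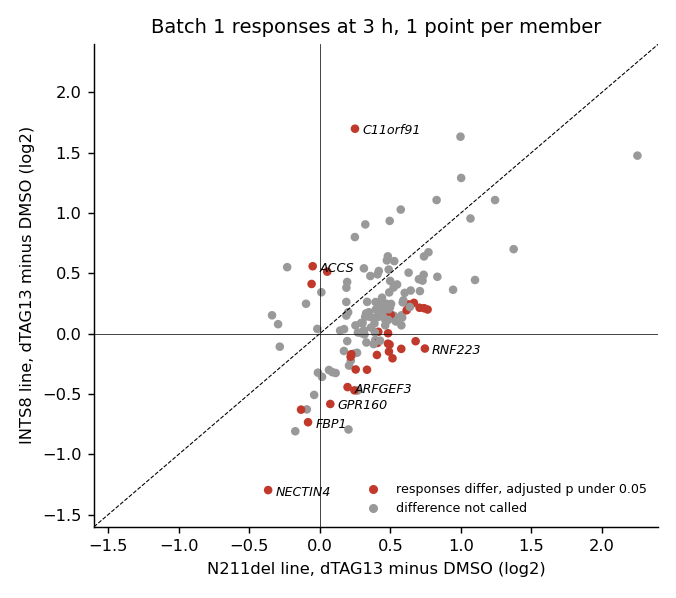
Log2 difference between dTAG13 and DMSO at 3 h in the INTS8 line against that in the N211del line of batch 1, with 1 point for each of 145 transient risers and a dashed line where both are equal; red points had responses that differ at an adjusted p under 0.05. Most red points lie below the line, with NECTIN4 at −0.37 in the N211del line and −1.30 in the INTS8 line, and 4 lie above it.

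With the degron on the endonuclease INTS11, many transient risers rose at 1 h. The share called lower at 3 h than at 1 h, 17.8%, was close to the 16.6% of eligible genes. At 1 h against 0 h in batch 2, 106 of 152 were higher and none was lower by limma, with a median of 0.39, against 46.2% higher and 10.9% lower of eligible genes and a median of 0.14. At an unadjusted p under 0.05, 0 were lower, and voom also called 0 lower; with centred libraries 77 were higher and 15 lower. At 3 h against 0 h, 85 were higher and 10 lower, with a median of 0.26, against 35.5% and 21.4% of eligible genes. The count of 10 was 4 without 0 h replicate 1 and 5 without 3 h replicate 1 or 3 h replicate 2. At 3 h against 1 h, 27 were lower and none was higher, with a median of −0.12, against 16.6% and 0.48% of eligible genes and a median of −0.09. At an unadjusted p under 0.05, 2 were higher at 3 h than at 1 h, and voom called 1. The 27 were 0 without 1 h replicate 1, 3 h replicate 1 or 3 h replicate 2 and 20 without 1 h replicate 2. With centred libraries 1 was lower, 0.658% of the transient risers against 1.37% of eligible genes. The count was 0 in a fit of the compared libraries alone and with pairs within counting noise averaged, and voom gave 49. These 3 comparisons share libraries. The 152 include CERCAM, EMP3, ERP27, HTR1D, NRSN2, PF4V1 and RNF186, which reached a batch 2 mean of 1 FPKM only through the INTS11 line. In the INTS11 line 5 of the 152 transient risers met all 3 thresholds of the rule (ACE, HOXD11, KCNK6, MYB and ZMYND10). Of the 6042 eligible genes 40 did, a smaller share, and this difference was not tested.

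MYB, a transcription factor of progenitor cells of the gut and blood, was high in both lines at 1 h. MYB was at 13.9 and 13.5 FPKM at 0 h, 24.6 and 25.4 FPKM at 1 h, and 18.5 and 17.8 FPKM at 3 h in the N211del line. The same times in the INTS11 line gave 10.1 and 9.43 FPKM, 15.3 and 15.2 FPKM, and 12.5 and 12.1 FPKM. MYB rose in INTS11 cells by 0.64 at 1 h (limma adjusted p = 4.2e-06) and fell by 0.31 between 1 and 3 h (adjusted p = 0.0138). The fall was lost without 1 h replicate 1 (adjusted p = 0.109), 3 h replicate 1 (0.0767) or 3 h replicate 2 (0.113). In batch 1 MYB did not pass the test in any line, and its differences were 0.17 in the N211del, −0.14 in the INTS8 and 0.12 in the INTS11 line.

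Some transient risers were still called higher at 3 h in the INTS11 line. TCHH, the hair follicle protein trichohyalin, was at 2.35 and 1.83 FPKM at 0 h, 4.84 and 6.50 FPKM at 1 h, and 5.07 and 7.13 FPKM at 3 h there. ERP27, a protein of the endoplasmic reticulum, was at 0.554 and 0.797 FPKM, then 1.76 and 2.13 FPKM, then 1.65 and 1.45 FPKM. In the N211del line ERP27 was at 0.352 to 0.896 FPKM, so it met the level filter only through these INTS11 libraries. CYSRT1 was at 9.93 and 6.44 FPKM, then 26.3 and 22.8 FPKM, then 27.2 in both 3 h libraries. All 3 rose at 1 h, by 1.39 for TCHH (limma adjusted p = 0.000358), 1.41 for ERP27 (adjusted p = 0.00019) and 1.6 for CYSRT1 (adjusted p = 0.00475), and at 3 h they stood 1.49, 1.10 and 1.75 above 0 h (adjusted p = 0.00028, 0.000915 and 0.00303). Other members did not pass the test in this line at 1 h: PACC1, a proton-activated chloride channel, was at 8.76 and 8.37 FPKM at 0 h, 8.65 and 8.61 FPKM at 1 h, and 8.22 and 7.96 FPKM at 3 h. N211del cells gave PACC1 levels of 10.3 and 10.2 FPKM, 16.9 and 17.5 FPKM, and 13.2 and 13.6 FPKM.

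In batch 1 the INTS11 line had 31 of 145 transient risers higher and 3 lower after 3 h (GPD1L, PTGES and CYP2S1), with a median of 0.14, against 17.9% higher and 21.1% lower of eligible genes and a median of −0.05. The count of 3 was 1 without DMSO replicate 2. With centred libraries 55 were higher, 37.9% of transient risers against 24.7% of eligible genes, and with the compared libraries alone 6 were lower. The N211del response was higher than the INTS11 response in 60 transient risers and lower in 8, against 45.4% and 4.44% of eligible genes. With centred libraries these counts were 21 and 20, so their direction depends on the scale. PACC1 was at 13.8 and 15.0 FPKM with dTAG13 and 8.35 and 8.49 FPKM with DMSO in the N211del line, against 9.57 and 9.45 FPKM and 10.3 and 10.7 FPKM in the INTS11 line. Its N211del response was 0.90 ± 0.12 (SE) higher (limma adjusted p = 6.6e-06), and it was also 0.56 higher than the INTS8 response (adjusted p = 0.00792). HTR1D, a serotonin receptor, went the other way: it was at 1.17 and 1.02 FPKM with dTAG13 and 0.234 and 0.195 FPKM with DMSO in the INTS11 line, and at 0.859 and 0.664 FPKM with dTAG13 and 0.703 and 0.508 FPKM with DMSO in the N211del line. Its N211del response stood 1.63 below that of the INTS11 line (log2 difference −1.63, adjusted p = 0.000179). The INTS11 levels of HTR1D rest on 30 and 26 units with dTAG13 and 6 and 5 with DMSO. In batch 2 HTR1D was at 0.578 to 1.41 FPKM in the N211del line and 1.10 to 1.99 FPKM in the INTS11 line. It met the level filter only through the INTS11 line.

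By what they are known to do, 86 of the 152 fell into 12 groups that were made after the members were known, and the examples in the groups were chosen after their values were seen. The groups are small, and their counts are read against all transient risers, of which 69.0% were higher in batch 1 N211del and 69.7% at 1 h in the INTS11 line, and against eligible genes, of which 48.2% and 46.2% were. The 7 cytokines, growth factors and hormones had 1 of 6 tested members called higher in batch 1 N211del, against 48.2% of eligible genes. One of them was IL7, a growth factor of lymphocytes, at 2.03 and 2.08 FPKM at 0 h, 3.59 and 3.89 FPKM at 1 h, and 2.22 and 2.46 FPKM at 3 h in the N211del line. IL7 was near 0.3 FPKM in the INTS11 line (0.238 to 0.349 FPKM over 6 libraries), and it fell in the INTS8 line of batch 1 (−0.63, limma adjusted p = 0.000943); its span overlaps another gene. Of 6 G protein-coupled receptors and signalling genes, 4 were higher in batch 1 N211del, against the same 48.2%. In INTS8 1 of the 6 was higher and 1 lower, against 33.9% and 21.7% of eligible genes.

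The 10 ion channel genes had 6 higher in batch 1 N211del and 8 higher in INTS11 at 1 h, against 48.2% and 46.2% of eligible genes. The endolysosomal cation channels MCOLN2 and MCOLN3 lie side by side. MCOLN2 was at 7.18 and 7.28 FPKM at 0 h, 12.7 and 12.4 FPKM at 1 h, and 9.85 and 9.30 FPKM at 3 h in the N211del line, and MCOLN3 at 1.64 and 1.79 FPKM, 3.14 and 3.04 FPKM, and 1.77 and 1.72 FPKM. Both had a 1 h difference near 0.8 (0.79 and 0.81), but MCOLN2 kept 0.40 and MCOLN3 0.02 at 3 h. In batch 1 N211del MCOLN2 rose by 0.41 ± 0.09 (SE, limma adjusted p = 0.000884), and MCOLN3 did not pass the test at 0.22 ± 0.15 (SE, adjusted p = 0.234). The difference between the 2 genes was not tested. The median gene of this contrast stood at 0.21, and at −0.05 with centred libraries, so the size of these values depends on the scale.

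Of 9 innate immune and interferon-linked genes, 5 were higher in batch 1 N211del, and 9 of 9 were higher at 1 h in the INTS11 line, against 48.2% and 46.2% of eligible genes. USP18, which removes the ubiquitin-like protein ISG15, was at 5.46 and 5.36 FPKM at 0 h, 10.2 and 10.4 FPKM at 1 h, and 7.15 and 7.68 FPKM at 3 h in the N211del line. With INTS11 tagged it was at 3.71 and 4.4 FPKM, 5.76 and 5.75 FPKM, and 5.00 and 5.21 FPKM. USP18 rose in batch 1 N211del by 0.71 (limma adjusted p = 9.46e-07) and in INTS8 by 0.35 (adjusted p = 0.00259). IRF5, an interferon regulatory factor, stood 0.81 above 0 h at 1 h and 0.36 at 3 h in N211del cells. With INTS11 tagged it rose by 0.73 at 1 h (adjusted p = 1.98e-05) and was 0.62 above 0 h at 3 h (adjusted p = 6.02e-05). The 5 protein kinases had 3 members higher in batch 1 N211del, against 48.2% of eligible genes. One of them, TEC, a non-receptor tyrosine kinase, was at 14.7 and 16.1 FPKM with dTAG13 and 9.4 and 9.0 FPKM with DMSO there (0.74, adjusted p = 8.44e-08).

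Among 8 transcription and chromatin genes, 5 of 7 tested were higher in batch 1 N211del, against 48.2% of eligible genes, and 4 of 8 were called lower at 3 h than at 1 h in the INTS11 line, against 16.6%. The 3 h against 1 h calls of all transient risers came to 0 without any 1 of 3 INTS11 libraries and to 1 with centred libraries. KAT2B, a histone acetyltransferase, was at 6.74 and 7.45 FPKM at 0 h, 11.8 and 12.2 FPKM at 1 h, and 9.74 and 9.56 FPKM at 3 h in the N211del line, and it rose by 0.50 in batch 1 (limma adjusted p = 0.000138). TET3, a methylcytosine dioxygenase, was at 23.0 and 23.5 FPKM at 0 h, 34.9 and 35.4 FPKM at 1 h, and 28.4 and 28.6 FPKM at 3 h. TET3 rose in batch 1 N211del (0.63, adjusted p = 9.96e-07) and INTS8 (0.51, adjusted p = 1.92e-05), and its span overlaps another gene. GRHL1, an epithelial grainyhead factor, rose in the N211del line of batch 1 (0.52, adjusted p = 0.00031) and did not pass the test in the INTS8 line (−0.20, adjusted p = 0.111) or the INTS11 line (−0.20, adjusted p = 0.14). Its N211del response was higher than that of INTS8 by 0.72 (adjusted p = 0.00726), though without N211del dTAG13 replicate 2 the adjusted p was 0.053.

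The 7 ubiquitin system genes had 6 of 6 tested members higher in batch 1 N211del and 2 of 7 higher at 1 h in the INTS11 line, against 48.2% and 46.2% of eligible genes. MARCHF8, a membrane-bound ligase, was at 3.34 and 3.91 FPKM with dTAG13 and 2.72 and 2.44 FPKM with DMSO in batch 1 N211del (0.47, limma adjusted p = 0.00214). In INTS11 cells of batch 2 it was at 1.39 and 1.33 FPKM at 0 h, 1.45 and 1.38 FPKM at 1 h, and 1.3 and 1.19 FPKM at 3 h, with no call. FBXO16, an F-box protein, rose by 0.55 in batch 1 N211del (adjusted p = 5.8e-05) and fell by 0.34 at 3 h against 0 h in the INTS11 line (adjusted p = 0.00216). Of 11 oxidation, conjugation and lipid enzymes, 8 were higher in batch 1 N211del, and of 8 sugar and glycan enzymes 6 were, shares near the 69.0% of all transient risers and above the 48.2% of eligible genes. XDH, the xanthine dehydrogenase of purine breakdown, rose by 0.49 there (adjusted p = 0.000986) and did not pass the test in the other lines of batch 1.

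Of 8 adhesion, polarity and matrix genes, 7 were higher in batch 1 N211del, and NECTIN4 was lower, against 48.2% and 7.22% of eligible genes. NPNT, the matrix protein nephronectin, was at 6.31 and 6.59 FPKM at 0 h, 11.7 and 12.1 FPKM at 1 h, and 9.37 and 9.86 FPKM at 3 h in the N211del line of batch 2. In batch 1 NPNT was at 5.74 and 6.69 FPKM with dTAG13 and 3.87 and 3.86 FPKM with DMSO there (0.67, limma adjusted p = 2.17e-06). LIMA1, which binds actin filaments, rose by 0.62 in batch 1 N211del (adjusted p = 6.76e-06). The 4 cilium genes had 2 higher in batch 1 N211del, and of the 3 iron and metal handling genes 1 of 2 tested was higher, both close to the background of 48.2%. That gene was TFR2, a transferrin receptor that senses iron (0.57, adjusted p = 0.00069), whose call was lost with centred libraries.

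Against lists of known pathways, the transient risers had few members. Of 24 lists, 3 held a transient riser: RHOU, an atypical small GTPase, was 1 of 25 eligible small GTPase signalling genes, KAT2B was 1 of 24 histone methylation and acetylation enzymes, and MARCHF8 was 1 of 43 RING and HECT ubiquitin ligases. Among all eligible genes 2.516% were transient and 17.461% sustained risers. None of 30 eligible immediate early genes was a transient riser, while 14 were sustained risers. None of 30 receptor tyrosine kinase and MAPK feedback genes and none of 12 p53 target genes was one, while 15 and 6 were sustained risers. At a share of 2.516%, lists of 12 to 30 genes would hold about 1 transient riser or none. The absence of members from these 3 lists is therefore close to the background. RHOU was at 5.04 and 6.17 FPKM at 0 h, 9.42 and 9.20 FPKM at 1 h, and 6.52 and 6.40 FPKM at 3 h in the N211del line. In batch 1 it fell in the INTS8 line, at 5.19 and 4.74 FPKM with dTAG13 and 8.14 and 7.33 FPKM with DMSO (−0.63, limma adjusted p = 2.84e-05).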

How the data were processed

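TT-seq tables of 24 DLD1 libraries were taken as deposited, grouped by their labels; where the protocol names only 3 h, the times in titles and characteristics were used. The authors' values are FPKM per the file headers. The tools named per the submitters' processing notes were STAR 2.7.5c and Trim Galore 0.6.6, with Picard 2.23.3, SAMtools 1.9 and DESeq2 1.26.0, and the builds were hg19 and mm10; the sources used here do not give their roles or whether strand was used in counting. The deposited FPKM behave as whole-number units per kilobase of gene, times 1 factor per library in batch 2 (0.565 to 0.753). Within 0.02 units, 99.9 to 100% of values came out whole. In the N211del line the factors were 0.704 and 0.664 at 0 h, 0.753 and 0.751 at 1 h, and 0.708 and 0.709 at 3 h. They were thus highest at 1 h, the time at which members were chosen to be high. The part of the members' rise and fall that follows these factors was not tested. Batches were scaled apart, so levels are not compared across them.

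Log2(FPKM + 0.1), which understates changes of low genes, was fitted by limma 3.58.1 (R version 4.3.3) over the 12 libraries of a batch, with trended and robust empirical Bayes. Genes with a mean of at least 0.1 were tested (6579 in batch 1, 6950 in batch 2), two-sided, with Benjamini-Hochberg adjustment over all of them at 0.05. All adjusted p-values are limma's. On simulated data for batch 1 N211del with 6579 genes, 21 of 50 genes changed 1.25-fold, 44 of 50 changed 1.5-fold, 46 of 50 changed 2-fold and 45 of 50 lowered 1.5-fold were recovered, with 6 false calls. The simulated libraries had no differing totals and no shift of the median gene, unlike the data. Calls that follow such a shift were therefore not covered by this check. The members, gene lists and motifs were chosen with earlier results of these data known. Named genes are those with the largest changes in the N211del time course, batch 1 N211del and the INTS11 time course, up to 2 per list and the nearest to each threshold, without uncharacterised loci; genes named beyond these were chosen after their values were seen. A gene that this rule names is not reported here. The alternatives were other pseudocounts and filters, centred libraries, a replicate block, only the libraries of a contrast, each library left out, and, chosen after seeing the data, voom on the units and averaging of pairs within counting noise. Scripts used Python 3.11.15, numpy 2.4.6, pandas 2.3.3 and matplotlib 3.10.9.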

Additional observations from a re-analysis of the deposited data

Results flagged for a closer look

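In batch 1, limma found that the response to 3 h of dTAG13 differed between lines for several transient risers, by a test of the difference itself; the values are differences on the log2 scale. The N211del response was higher than the INTS8 response for NECTIN4 (0.93, adjusted p = 0.00148), RNF223 (0.87, adjusted p = 0.0345) and PPP1R14C, an inhibitor of a protein phosphatase (0.74, adjusted p = 0.0344). It was lower for ACCS (−0.61, adjusted p = 0.0376), RNF135, a ubiquitin ligase of RNA sensing (−0.47, adjusted p = 0.0261), and HDDC3 (−0.46, adjusted p = 0.0414). Of these, NECTIN4 kept its call without any 1 library, while the adjusted p reached 0.0969 for RNF223, 0.171 for PPP1R14C, 0.11 for ACCS, 0.0985 for RNF135 and 0.168 for HDDC3 without single libraries. C11orf91, outside the naming rule, stood 1.45 lower in the N211del line (log2 difference −1.45, adjusted p = 0.0379), at 3.11 and 3.89 FPKM with dTAG13 and 2.73 and 3.11 FPKM with DMSO, against 6.23 and 6.62 FPKM with dTAG13 and 1.56 and 2.34 FPKM with DMSO in the INTS8 line. These levels rest on 16 and 17 units with dTAG13 and 4 and 6 with DMSO in the INTS8 line, and the span of C11orf91 overlaps CD59. Its call was lost without INTS8 DMSO replicate 1 (adjusted p = 0.0654), INTS8 dTAG13 replicate 1 (0.0675) or 2 (0.136), N211del DMSO replicate 1 (0.0966) or 2 (0.138), or N211del dTAG13 replicate 2 (0.0566).

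The N211del response was higher than the INTS11 response for RNF223 (1.15, adjusted p = 0.00201), LZTS3 (1.09, adjusted p = 0.00273) and PACC1 (0.90, adjusted p = 6.6e-06). It was lower for HTR1D (−1.63, adjusted p = 0.000179), ERP27 (−0.85, adjusted p = 0.0097) and SIPA1, an inhibitor of RAP GTPases (−0.69, adjusted p = 0.0019). HTR1D and ERP27 met the level filter only through the INTS11 line of batch 2, as did CERCAM, EMP3, NRSN2, PF4V1 and RNF186. The call for ERP27 was lost without N211del DMSO replicate 2 (adjusted p = 0.0528), and that for LZTS3 was lost with centred libraries (adjusted p = 0.0597).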

How the results depend on the processing

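Of 217 results for single genes, 115 kept their call in every alternative, 102 lost it in at least one and 3 reversed, all 3 with centred libraries: GAL3ST2 (−0.0672) and GPD1L (−0.00678) in batch 1 N211del, and RBM47 (−0.00311) in INTS11 at 1 h. Centring also gave 59 higher and 13 lower members in batch 1 N211del, 28 lower in INTS8, 55 higher in INTS11, 15 lower at 1 h and 16 lower at 3 h against 0 h in batch 2 INTS11, 1 lower at 3 h against 1 h, 18 higher in N211del over INTS8, 21 higher and 20 lower in N211del over INTS11, and 19 members. A limit of −0.5 between 3 and 1 h left 41 members. Averaging pairs within counting noise gave 0 lower in batch 1 N211del, 51 higher and 0 lower at 3 h against 0 h, 0 lower at 3 h against 1 h, 4 higher and 1 lower over INTS8 and 25 higher over INTS11. Voom gave 1 higher and 49 lower at 3 h against 1 h and 56 higher over INTS8. With only the libraries of a contrast, 6 were lower in batch 1 INTS11, 0 at 3 h against 1 h and 7 over INTS8.

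Without 1 library, the lower counts were 0 to 2 in batch 1 N211del, 1 to 4 in batch 1 INTS11, 4 to 11 at 3 h against 0 h and 0 to 20 at 3 h against 1 h, and over INTS8 8 to 72 were higher and 0 to 3 lower; members numbered 134 to 180. The cause of these shifts was not tested, except that leaving out a library leaves a group with 1, assumed to vary like the others. Replicate numbers did not pair the samples (correlations of deviations from −0.118 to 0.107), and the replicate block gave 96 higher in batch 1 N211del, 106 higher at 1 h in batch 2 INTS11 and 30 higher over INTS8. Members with few units limit precision, as 33 held under 100 at 0 h.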
